A study of Caenorhabditis elegans with 15 samples.

Results

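Batches 3 and 5 were compared with each other, as 6 of the 15 RNA-seq libraries of a study of ursolic acid (UA) in Caenorhabditis elegans. UA is a plant triterpenoid. The series held 5 batches, numbered 1 to 5, and each batch gave 1 UA library, 1 DMSO library and 1 untreated library. All animals were wild-type N2 that hatched in M9 buffer, were fed Escherichia coli OP50 for 34 h and were then kept for 12 h with 50 µM UA in DMSO, with the DMSO vehicle alone or with no addition, before they were harvested as fourth-stage (L4) larvae. Polyadenylated RNA of whole larvae was sequenced. The labels named the batches but did not say how they differed, so each batch was treated as 1 culture with 3 treatments and treatment was used as a block. The p-values below therefore measure the spread of libraries around that fit, and not the spread between repeated cultures of a batch. In RNA of whole larvae, fewer cells of a type and less RNA per cell cannot be told apart.

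The last larval stage of a hermaphrodite ends with the moult to the adult. During this time the germ line makes sperm first and then switches to oocytes, and the epidermis lays down the adult cuticle beneath the larval one. Many cuticle collagens, moulting proteases and apical matrix proteins are made in waves that recur within each larval stage. The levels of such genes are known to change with age within a stage.

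The 6 libraries held 12485842 to 24018538 counts, and the UA library of batch 5 was the smallest. The 9 libraries of batches 1, 2 and 4 held 20644549 to 27474535 counts. The Pearson correlation of log2 counts per 1000000 reads counted (CPM) between libraries of 1 batch was 0.994 to 0.995 in batch 3 and 0.992 to 0.995 in batch 5. Of 20541 genes, 14037 passed the filter on low counts and were tested. Defining markers of intestine, muscle, epidermis, neurons and germ line were read in all 6 libraries, and none of the markers found was at 0 in all of them.

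The 2 batches were selected for their place on the main axis, which is the first principal component of log2 CPM after the treatment means were removed and which carried 60.78% of the variance. Batch 3 lay at 18.6, 25.8 and 26.01 in its UA, DMSO and untreated libraries, and batch 5 lay at 40.4, 37.2 and 36.9. Batches 1, 2 and 4 lay between -30.9 and -7.41, on the other side. On the second axis, with 13.26% of the variance, batch 3 lay between 16.5 and 19.9, batch 5 between -20.2 and -13.1, and the other batches between -7.82 and 10.1. These positions are a description of the choice and were not tested.

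**Figure D1:**
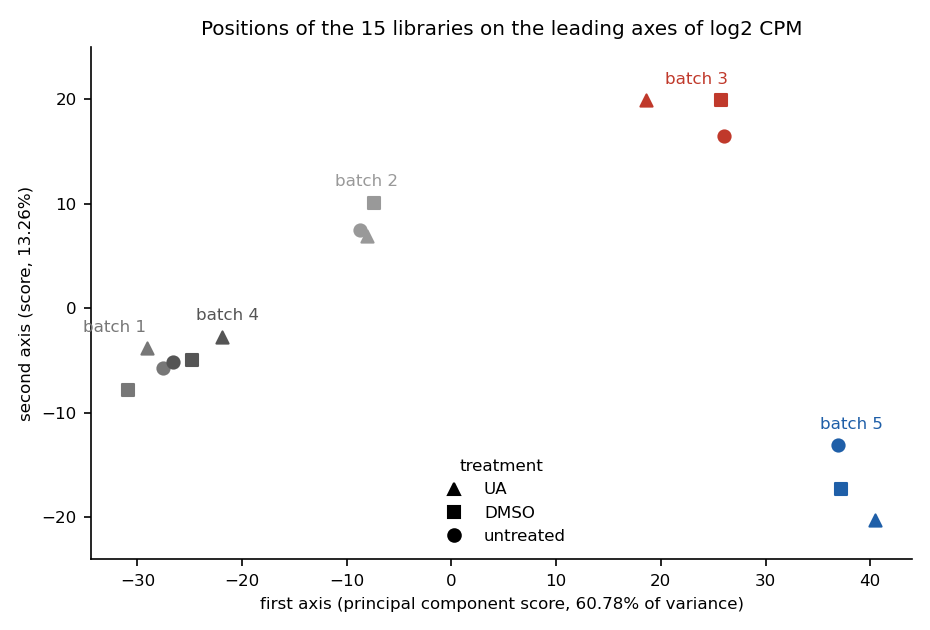
Each point is 1 of the 15 libraries, placed by its score on the first axis (horizontal) and the second axis (vertical) of log2 CPM. Colour and label give the batch and shape gives the treatment; batches 3 and 5 share the right side of the first axis and lie at opposite ends of the second.

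Of the 14037 tested genes, 3116 (22.2%) differed between batch 3 and batch 5 at an adjusted p below 0.02, the threshold for a call here (edgeR quasi-likelihood test, Benjamini-Hochberg adjustment). In batch 3, 1759 genes (12.5%) were higher and 1357 (9.67%) were lower than in batch 5. Most differences were small, with a median fold of 1.40 among called genes. At 2-fold or more the balance turned, with 42 genes (0.299%) higher and 157 (1.12%) lower in batch 3. The direction was shared by all 3 treatments in 3098 of the 3116 called genes, beside 7805 (55.6%) of all tested genes. The calls rest on these same differences, so this agreement follows from the call and is no separate support. Without its UA library or without its DMSO library, batch 3 had 884 and 886 genes lower.

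Counted by libraries alone, 2849 tested genes (20.3%) had all 3 batch 3 libraries above all 3 batch 5 libraries, and 2432 (17.3%) had them all below. For scale, batches 1 and 4 differed in 517 genes (3.68%). That pair lay closer together on the main axis, at means of -29.1 and -24.4, against 23.5 and 38.2 for batches 3 and 5. Against the mean of batches 1, 2 and 4, batch 3 differed in 4073 genes (29.0%) and batch 5 in 6148 (43.8%). Both of these comparisons used the same 9 libraries as their reference. Since the 2 batches were chosen on the far side of the main axis from these libraries, both counts follow in part from that choice.

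The called genes were sorted by where the batch 3 and batch 5 means lay relative to the range of the batch 1, 2 and 4 means, as a description. Both lay outside that range on the same side in 1570 called genes, and in 1393 of these batch 5 was the farther. The batches were chosen on 1 side of the main axis, where batch 5 lay farther out. This pattern, here and in the lists below, follows in part from that choice. Among the 199 genes that differed by 2-fold or more the picture was different: 57 had both batches on the same side, with batch 5 the farther in 27, and 62 had them on opposite sides. Batch 3 alone lay outside in another 46 of the 199, and batch 5 alone in 28.

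By chromosome, autosomes I to IV had more genes higher in batch 3 and chromosomes V and X had more that were lower. Over all tested genes 12.5% were higher and 9.67% lower. On chromosome I, 335 of 2338 tested genes (14.3%) were higher and 141 (6.03%) were lower in batch 3. On chromosome X, 123 of 1978 tested genes (6.22%) were higher and 233 (11.8%) were lower. Chromosome V had 281 of 2721 tested genes (10.3%) higher and 400 (14.7%) lower. Sperm genes are known to be scarce on X, and several large families of secreted proteins and receptors lie on V. The part of such genes in the counts by chromosome was not tested.

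The genes at both ends of the fold change scale are given first, as the 12 with the largest and the 12 with the smallest log2 fold change among called genes that averaged 5 CPM or more and whose libraries did not overlap. Log2 fold changes are batch 3 minus batch 5 throughout, with their standard errors, and CPM values are in the order UA, DMSO, untreated. The batch 3 values of all 24 genes lay wholly above or wholly below those of batch 5, as the rule required. Positions are on the WBcel235 assembly.

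Cuticle collagens and glutathione S-transferases stood among the 12 genes that were highest in batch 3 relative to batch 5. The collagen gene col-63 (WBGene00000639, chromosome I, 8243694 to 8244963, minus strand) had 896, 911 and 872 CPM in batch 3, against 315, 444 and 413 CPM in batch 5. It was 2.297-fold higher in batch 3 (adjusted p = 8.6e-10). The related col-138 (chromosome IV, 17182884 to 17183729, minus strand, 1 exon) had 1226, 1249 and 1064 CPM in batch 3, against 495, 583 and 600 CPM in batch 5. rol-1, named for the roller body shape of its mutants, had 796, 832 and 704 CPM in batch 3 and 334, 368 and 389 CPM in batch 5. In all 3 genes the means of batches 1, 2 and 4 were higher still, at 1363, 1395 and 1504 CPM for col-63.

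The glutathione S-transferases conjugate glutathione to reactive compounds. gst-35 (chromosome II, 15183807 to 15185389, minus strand) had 93.6, 62.3 and 92.6 CPM in batch 3, against 43.2, 21.1 and 24.3 CPM in batch 5, a log2 fold change of 1.54 ± 0.21 (adjusted p = 2.2e-05). gst-21 had 18.99, 14.4 and 20.8 CPM in batch 3 and 10.1, 7.80 and 7.69 CPM in batch 5. Unlike the collagens, both were also higher in batch 3 than in the mean of batches 1, 2 and 4, by 1.28 and 1.13 on the log2 scale, while batch 5 differed from that mean by -0.26 and 0.04. The whole family was counted after its values were seen. Of 37 tested glutathione S-transferases 6 (16.2%) were higher and 5 (13.5%) lower in batch 3, with a median of -0.06. These shares are close to the 12.5% and 9.67% of all tested genes. The 5 lower calls became 2 or 3 when any 1 of the 6 libraries was left out, and 0 without the DMSO libraries of all batches.

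The largest log2 fold change of these 12 was that of F44G3.2 (chromosome V, 16103894 to 16105952), at 1.77 ± 0.22. F44G3.2 had 14.8, 15.1 and 8.95 CPM in batch 3 against 4.24, 4.86 and 2.12 CPM in batch 5. cth-1, a cystathionine gamma-lyase gene that lies beside it on the same strand (16100680 to 16102750), was looked up after its value was seen. It had 35.1, 41.3 and 28.9 CPM in batch 3, against 20.1, 21.8 and 14.1 CPM in batch 5, and a log2 fold change of 0.91 ± 0.10. In both neighbours the untreated library was the lowest of its batch. The most abundant of the 12 was E01G4.6, with 2406, 2312 and 2035 CPM in batch 3 and 999, 1023 and 1194 CPM in batch 5. dao-4, C04G6.2, C42D4.2 and F13A7.12 made up the rest, apart from vit-3, which is described with the yolk genes. Their log2 fold changes ran from 1.04 to 1.21.

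The 12 genes at the other end included 3 more cuticle collagens. col-41 (chromosome X, 15175032 to 15176481, minus strand) had 71.0, 74.6 and 74.2 CPM in batch 3, against 227, 192 and 199 CPM in batch 5, a log2 fold change of -1.49 ± 0.07 (adjusted p = 6.9e-11). col-54 had 18.99, 18.5 and 19.9 CPM in batch 3 and 53.6, 50.4 and 50.4 CPM in batch 5. col-90 had 138, 133 and 147 CPM in batch 3 and 345, 358 and 348 CPM in batch 5. Here the means of batches 1, 2 and 4 fell between the 2 batches, at 89.8, 173 and 104 CPM for col-41. An exon of col-90 shares 98 bases with a gene that runs the other way, and whether the counting used strand is not given in the sources used here.

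The remaining 9 had low to moderate levels. tba-8, an alpha-tubulin gene, had 3.16, 3.02 and 3.43 CPM in batch 3 against 8.88, 7.88 and 7.91 CPM in batch 5, a log2 fold change of -1.35 ± 0.13 (adjusted p = 3.6e-07). Y41C4A.11 had 13.7, 17.4 and 22.97 CPM in batch 3 and 36.5, 55.8 and 69.6 CPM in batch 5, and in both batches its UA library was the lowest and its untreated library the highest. W09G12.7 had the most negative fold change, -1.65 ± 0.21, with 4.85, 6.86 and 5.34 CPM in batch 3 and 15.2, 19.2 and 18.4 CPM in batch 5. F20B10.3, ZK896.5, F48G7.5, F35B12.4, C50F7.5 and F33H12.7 ranged from -1.58 to -1.34. The last genes inside the rule were F13A7.12 at 1.04 and col-90 at -1.33, and the first outside it were col-49 at 1.02 and abu-8 at -1.26.

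**Figure D2:**
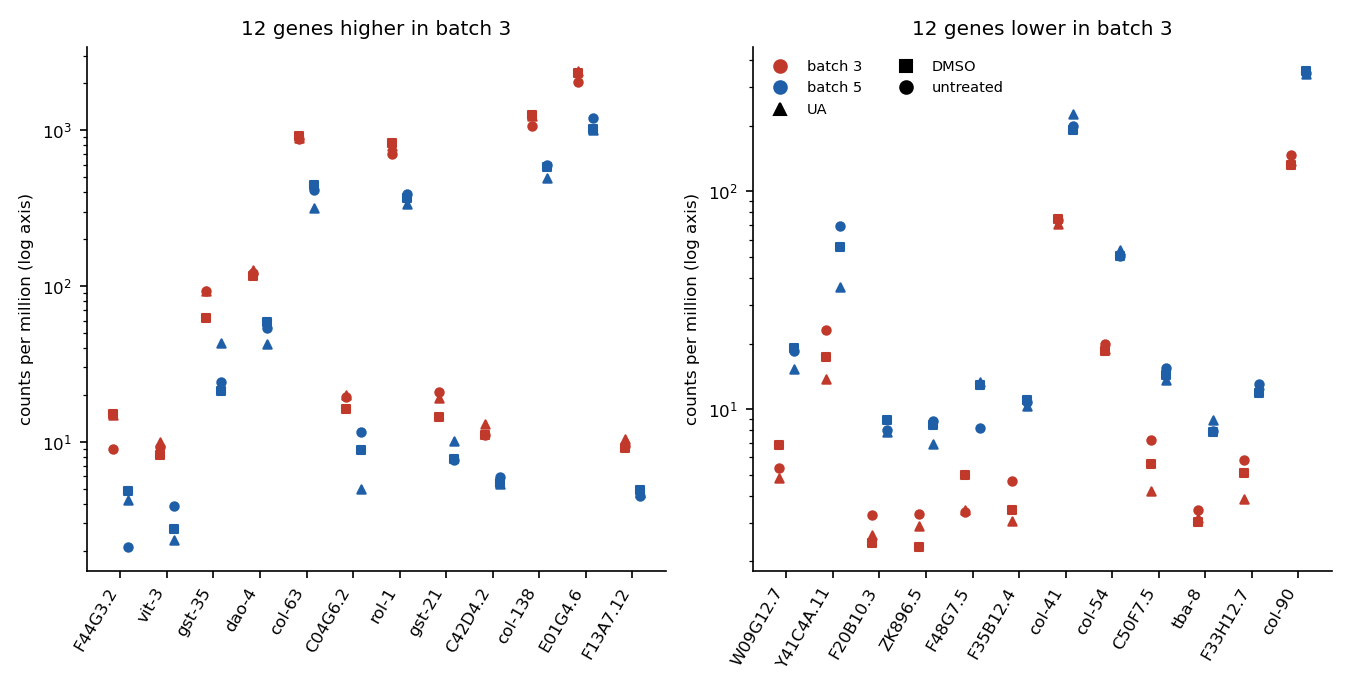
Each point is the CPM (log axis) of 1 library. Shown are the 12 largest (left panel) and 12 smallest (right panel) log2 fold changes among called genes of at least 5 CPM without overlap. Colour gives the batch, with batch 3 left of batch 5 at each gene, and shape gives the treatment. The batches do not overlap in any of the 24 genes, as the rule required.

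The collagens therefore ran both ways, and the whole family was examined for that reason, after its values were seen. Of 134 tested cuticle collagen genes, 36 (26.9%) were higher and 49 (36.6%) were lower in batch 3, against 12.5% and 9.67% of all tested genes. The family median was -0.11 (0.0011 over all genes). With any 1 of the 6 libraries left out, 34 to 38 were higher and 39 to 47 were lower. Summed over the family, batch 3 had 30945 to 34544 CPM, batch 5 had 26670 to 27672 CPM, and the other batches had 41446 to 49040 CPM.

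Of the 36 collagens that were higher in batch 3, 27 had both batches below the range of batches 1, 2 and 4, with batch 5 the lower. This was the pattern of col-63, col-138, col-49, col-38 and col-71. col-49 had 530, 485 and 470 CPM in batch 3, against 217, 254 and 262 CPM in batch 5, and 758 to 924 CPM as the means of the other batches. bli-1 and bli-2, which are needed for the struts that join the layers of the adult cuticle, differed from this: bli-1 had 953, 908 and 877 CPM in batch 3 and 682, 583 and 692 CPM in batch 5, and batch 3 alone was above all 3 means of batches 1, 2 and 4, at 512 to 667 CPM. bli-2 had 683 to 721 CPM in batch 3 and 452 to 500 CPM in batch 5, with means of 447 to 553 CPM in batches 1, 2 and 4.

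The body-shape collagens dpy-13 and sqt-3 were also higher in batch 3, with log2 fold changes of 0.38 ± 0.07 and 0.40 ± 0.06. dpy-13 had 1184, 1308 and 1074 CPM in batch 3, against 906, 868 and 970 CPM in batch 5. An exon of sqt-3 shares 144 bases with a gene that runs the other way.

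Of the 49 collagens that were lower in batch 3, 32 again had both batches below the range of the other batches, but with batch 3 the lower. These included col-19 and col-7, which are known as collagens of the adult cuticle. col-19 (chromosome X, 421707 to 422691) had 9.14, 4.67 and 8.69 CPM in batch 3, against 12.2, 22.1 and 14.4 CPM in batch 5, a log2 fold change of -1.13 ± 0.22 (adjusted p = 0.00051). The means of batches 1, 2 and 4 were 204, 61.2 and 91.3 CPM. All batch 3 libraries of col-19 lay below all those of batch 5.

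col-119 had 0.848, 0.274 and 0.782 CPM in batch 3, against 2.83, 4.62 and 2.25 CPM in batch 5, a log2 fold change of -2.34 ± 0.38 (adjusted p = 0.00010), with means of 60.1, 12.4 and 13.1 CPM in batches 1, 2 and 4. col-81 had 16.2, 9.56 and 10.9 CPM in batch 3 and 17.8, 31.4 and 23.4 CPM in batch 5. In all 3 genes the DMSO library was the lowest of batch 3 and the highest of batch 5. With edgeR's robust option the calls of col-19 and col-81 were lost (adjusted p = 0.0259 and 0.0278), and that of col-81 was also lost without the DMSO libraries of all batches (0.0468). col-8, col-7 and col-62 had larger log2 fold changes, of -2.82, -2.40 and -2.12, at no more than 0.391 CPM in batch 3 and 1.91 CPM in batch 5. These 3 were no longer called without the DMSO library of batch 5 (adjusted p = 0.035, 0.077 and 0.037), and col-7 and col-62 were also lost without that of batch 3 (0.049 and 0.022).

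**Figure D3:**
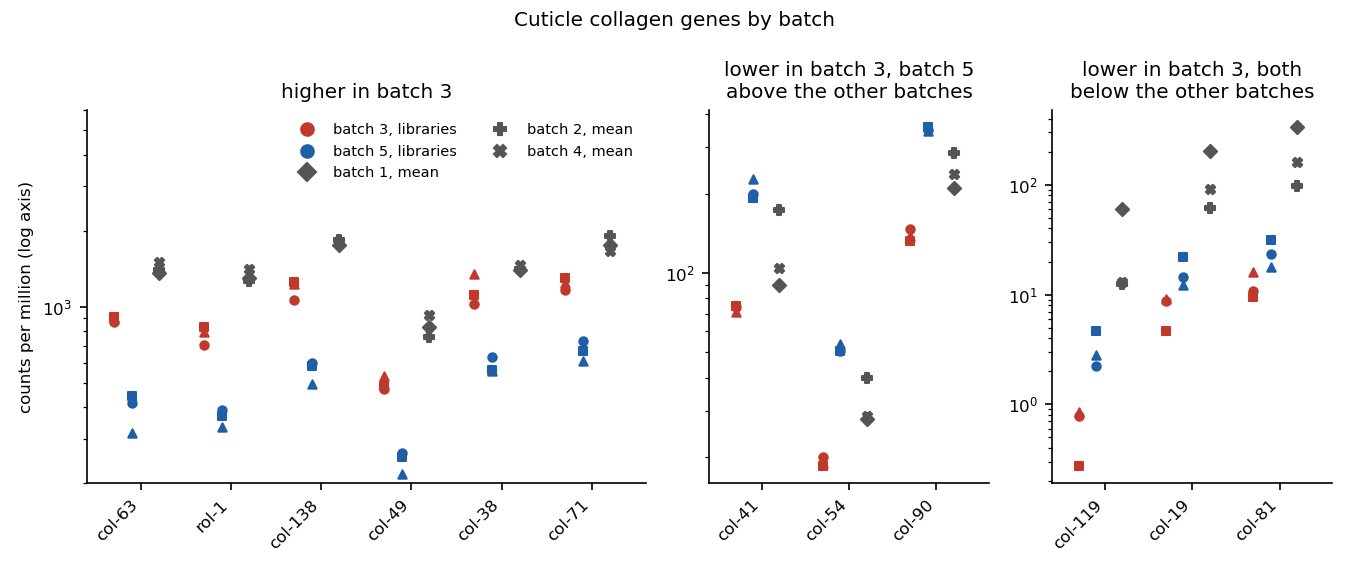
CPM (log axes, which differ between panels) of 12 collagen genes, with 1 point for each library of batch 3 and batch 5 and 1 grey symbol for the mean of each of batches 1, 2 and 4. The left panel holds genes higher in batch 3, the middle panel genes lower in batch 3 with batch 5 above the other means, and the right panel genes lower in batch 3 with both batches below the other means.

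Genes of the moult and of the apical matrix also ran both ways. The pqn and abu genes encode proteins rich in glutamine and asparagine or in related repeats, and several are known from the cuticle of the pharynx. Of 66 tested, 4 (6.06%) were higher and 21 (31.8%) lower in batch 3, against 12.5% and 9.67% of all tested genes. Of the lower genes 8 differed by 2-fold or more, and the median was -0.07. This list too was chosen after its values were seen. abu-8 had 12.0, 18.1 and 16.3 CPM in batch 3 against 42.5, 31.1 and 38.9 CPM in batch 5, a log2 fold change of -1.26 ± 0.12 (adjusted p = 2.5e-07). abu-7, abu-15 and pqn-36 had log2 fold changes of -1.25, -1.24 and -1.11, and batch 3 was also below the means of batches 1, 2 and 4 in each. pqn-32 went the other way, with 266, 306 and 247 CPM in batch 3 and 170, 151 and 169 CPM in batch 5. abu-7, abu-8 and abu-15 lie close together on chromosome V and are alike in sequence, so their reads may have been shared.

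Of 50 tested moulting proteases and apical matrix genes, 9 (18%) were higher and 10 (20%) lower in batch 3. Among all tested genes 12.5% were higher and 9.67% lower. This list was chosen after its values were seen. The astacin protease gene nas-1 had 1.22, 1.69 and 1.39 CPM in batch 3 against 4.32, 4.10 and 4.10 CPM in batch 5, and nas-30 had 7.11, 11.3 and 8.56 CPM in batch 3 against 20.4, 16.9 and 20.4 CPM in batch 5. mlt-10, needed for moulting, was higher, with 457, 466 and 463 CPM in batch 3 and 291, 293 and 353 CPM in batch 5. An exon of mlt-10 overlaps 125 bases of another gene on its own strand.

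Hedgehog-related proteins (the warthog, ground-like and groundhog families) are secreted proteins of epithelia and the cuticle, and the patched-related genes encode membrane proteins related to the hedgehog receptor. C. elegans has no complete hedgehog pathway. Of 63 tested genes 24 (38.1%) were higher and 14 (22.2%) were lower in batch 3, against 12.5% and 9.67% of all tested genes. The median was 0.18. wrt-6 had 173, 167 and 156 CPM in batch 3, against 94.2, 84.7 and 97.5 CPM in batch 5 (log2 fold change 0.84 ± 0.05, adjusted p = 1.3e-09). grl-5 had 193, 218 and 196 CPM in batch 3 and 94.8, 111 and 114 CPM in batch 5. The ground-like grl-4 was lower, with 21.1, 30.5 and 27.1 CPM in batch 3 and 60.8, 55.8 and 56.3 CPM in batch 5. Members of 1 family thus lay on both sides.

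Stage timing (heterochronic) genes set which larval fate the epidermis takes. Of 19 tested, 1 (5.26%) was higher and 5 (26.3%) were lower in batch 3, against 12.5% and 9.67% of all tested genes. The lower calls were 3 without the UA library of batch 3 or the untreated library of batch 5. This list too was chosen with its values known. lin-46 had 2.97, 2.06 and 2.13 CPM in batch 3 against 8.25, 5.02 and 6.01 CPM in batch 5 (log2 fold change -1.40 ± 0.16, adjusted p = 1.9e-06). lin-41, which holds back the adult fate, had 50.8, 53.0 and 53.8 CPM in batch 3 and 78.1, 59.3 and 69.6 CPM in batch 5. nhr-25, a nuclear receptor needed for moulting, had 8.81, 6.86 and 8.25 CPM in batch 3 and 12.9, 11.4 and 12.9 CPM in batch 5. The 3 batch 3 libraries lay below the 3 of batch 5 in each of these genes. The other called members were kin-20 and F21A10.2, both lower, and lin-42, higher. The lin-42 call was lost without the DMSO library of batch 3 (adjusted p = 0.12) or of batch 5 (0.14).

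No gene of the sperm, oocyte, yolk and germ granule lists was called lower in batch 3. Of 56 tested genes of the major sperm protein and related sperm families, 47 (83.9%) were higher in batch 3 and none was lower. The list median was 0.62, and 12.5% of all tested genes were higher. All 47 had both batches below the range of the other batches, with batch 5 the lower. Major sperm protein drives the crawling of the sperm and also signals to oocytes. msp-78 had 23.5, 25.8 and 24.4 CPM in batch 3, against 14.9, 16.08 and 14.4 CPM in batch 5 (log2 fold change 0.70 ± 0.06, adjusted p = 5.9e-08). msp-76 had 39.4, 42.3 and 40.0 CPM in batch 3 and 23.8, 27.3 and 27.1 CPM in batch 5, and msp-40 had 62.9, 68.1 and 62.6 CPM in batch 3 and 35.5, 43.9 and 43.2 CPM in batch 5. The msp genes are nearly identical copies, so the split of reads between them is uncertain and the family was also summed. The sum was 1368 to 1545 CPM in batch 3, 853 to 1020 CPM in batch 5 and 2065 to 2853 CPM in the other batches.

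Genes named for defects in sperm (spe and fer) went the same way, with 14 of 21 tested (66.7%) higher in batch 3 and none lower. The median was 0.38, and 12.5% of all tested genes were higher. Both batches lay below the range of the other batches in 7 of the 14. Batch 3 lay inside that range in 5 and above it in 2, with batch 5 below it. spe-15, a myosin that helps to sort the contents of budding sperm, had 108, 117 and 98.8 CPM in batch 3, against 69.2, 68.7 and 75.4 CPM in batch 5. spe-41, a calcium channel needed for fertilisation, had 41.4, 42.3 and 38.4 CPM in batch 3 and 28.1, 27.5 and 27.9 CPM in batch 5. spe-47 had 11.3, 13.04 and 10.5 CPM in batch 3 and 6.60, 7.68 and 7.26 CPM in batch 5. Males make sperm as well, and the summed level of 3 male markers (mab-3, pkd-2 and lov-1) was 13.3 to 14.7 CPM in batch 3, 10.5 to 13.05 CPM in batch 5 and 6.61 to 9.55 CPM in the other batches. The part of males in the sperm genes was not tested.

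Oocyte and eggshell genes differed less. Of 31 tested, 15 (48.4%, against 12.5% of all tested genes) were higher in batch 3 and none was lower, with a median of 0.31. Between 10 and 16 were higher when 1 library was left out. Without the DMSO library of batch 5 the count was 10, and without those of all batches it was 7. cpg-7, a chondroitin proteoglycan gene, had 138, 136 and 133 CPM in batch 3, against 88.6, 107 and 102 CPM in batch 5 (log2 fold change 0.45 ± 0.06, adjusted p = 1.2e-05). cpg-2, a proteoglycan of the eggshell, had 48.6, 53.3 and 46.8 CPM in batch 3 and 37.9, 38.8 and 37.3 CPM in batch 5. rme-2, the yolk receptor of the oocyte, had 34.4, 32.5 and 25.5 CPM in batch 3 and 21.9, 20.8 and 21.4 CPM in batch 5. All 3 were higher still in batches 1, 2 and 4, with means of 93.2 to 137 CPM for cpg-2.

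Of the 6 yolk protein genes, which are known for their expression in the adult intestine, 2 (33.3%) were higher in batch 3 and none was lower. The share over all tested genes was 12.5%. vit-3 had 10.04, 8.23 and 9.21 CPM in batch 3, against 2.36, 2.75 and 3.85 CPM in batch 5 (log2 fold change 1.64 ± 0.23, adjusted p = 2.0e-05). vit-1 had 60.6, 58.5 and 63.3 CPM in batch 3 and 47.2, 34.3 and 55.8 CPM in batch 5 (0.43 ± 0.11, adjusted p = 0.0075). Its call was lost without the DMSO library of batch 5 (adjusted p = 0.085) and without the UA library of batch 3 (0.038), and also in DESeq2 (0.0355) and with edgeR's robust option (0.071). The most abundant, vit-2 and vit-6, were not called: vit-6 had 205, 175 and 230 CPM in batch 3 and 162, 165 and 220 CPM in batch 5, and vit-2 had 109, 105 and 148 CPM in batch 3 and 97.5, 107 and 147 CPM in batch 5. Their means in batches 1, 2 and 4 ran from 339 to 1424 CPM. vit-5 had 4.48, 0.640 and 2.52 CPM in batch 3 and 3.69, 7.56 and 4.15 CPM in batch 5, and was not called (adjusted p = 0.081) except when the UA library of batch 3 was left out (log2 fold change -1.82, adjusted p = 0.0062). vit-3, vit-4 and vit-5 are alike in sequence, and their reads may have been shared.

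Germ granule and meiosis genes and small RNA factors were chosen after their values were seen. Among the former, 10 of 30 tested (33.3%, against 12.5% of all tested genes) were higher in batch 3. None was lower, and the median was 0.14. Leaving out 1 library gave 6 to 13 higher. The count was 6 without the DMSO library of batch 5, and 2 without the UA libraries of all batches. him-3, a protein of the meiotic chromosome axis, had 84.1, 84.4 and 83.6 CPM in batch 3, against 63.8, 75.7 and 73.4 CPM in batch 5, a call lost without the UA libraries (adjusted p = 0.0284). glp-1, the receptor that keeps germline stem cells dividing, was not called, with 66.1 to 73.5 CPM in batch 3 and 62.1 to 67.1 CPM in batch 5. Of 38 Argonautes and other small RNA factors 8 (21.1%, against 12.5% of all tested genes) were higher and none was lower. wago-10 had 75.3, 81.7 and 69.4 CPM in batch 3 and 48.3, 48.0 and 55.9 CPM in batch 5. csr-1 had 374 to 385 CPM in batch 3 and 310 to 324 CPM in batch 5, and 438 bases of its exons overlap another gene on its strand.

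**Figure D4:**
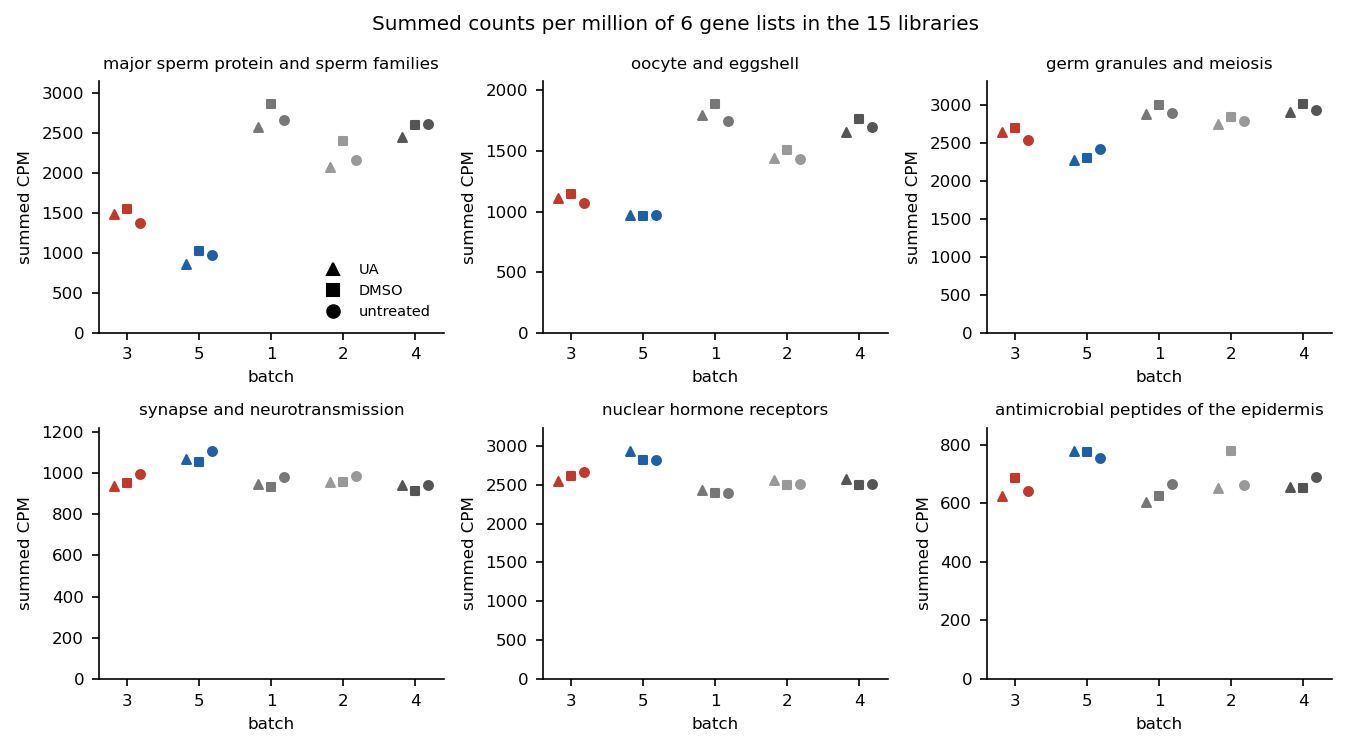
Summed CPM (vertical axes from 0) of the tested members of 6 gene lists in each of the 15 libraries, by batch, with batches 3 and 5 first. Shape gives the treatment; the germline sums (top row) are lower in batch 5 than in batch 3 and lower in both than in the other batches, and the lower row shows 3 sums that are higher in batch 5 than in batch 3.

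Synapse genes that were called were lower in batch 3, by small amounts. Of 26 tested synapse and neurotransmission genes, none was higher and 12 (46.2%, against 9.67% of all tested genes) were lower in batch 3. The median was -0.23. snt-1, the calcium sensor synaptotagmin, had 19.03, 16.9 and 18.4 CPM in batch 3 against 25.1, 22.97 and 23.03 CPM in batch 5 (log2 fold change -0.39 ± 0.07, adjusted p = 0.00017). unc-104, the kinesin that carries synaptic vesicle precursors along axons, had 47.4, 39.2 and 46.6 CPM in batch 3 and 59.7, 54.2 and 55.4 CPM in batch 5. ric-4, the SNAP-25 of the worm, had 33.5, 32.1 and 39.9 CPM in batch 3 and 40.9, 43.2 and 43.7 CPM in batch 5. The list sum was 937 to 996 CPM in batch 3, 1052 to 1107 CPM in batch 5 and 914 to 983 CPM in the other batches. With 1 library left out, 3 to 8 of the 26 were lower, and the count was 3 without the UA library of batch 3, 4 without its untreated library, 7 without its DMSO library, 6 without the UA library of batch 5 and 5 without its untreated library. Without the DMSO libraries of all batches it was 2.

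Of 62 tested neuropeptide genes of the flp and nlp families, 1 (1.61%) was higher and 8 (12.9%) were lower in batch 3, with a median of -0.19, and the share lower was close to the 9.67% of all tested genes. The lower count was 5 without any 1 of the batch 3 libraries or without the DMSO library of batch 5, and the 1 higher call remained only without the UA library of batch 3. flp-27 had 7.02, 7.78 and 6.99 CPM in batch 3 and 10.8, 10.3 and 9.76 CPM in batch 5. nlp-8 had 15.4, 15.2 and 16.8 CPM in batch 3 and 19.6, 19.4 and 21.7 CPM in batch 5, and flp-14 had 27.9, 29.5 and 29.7 CPM in batch 3 and 37.0, 37.0 and 34.3 CPM in batch 5. The list gathered by chemoreceptor gene names had 51 tested members, with a median of -0.26. In batch 3, 11 of them (21.6%, against 9.67% of all tested genes) were lower and none was higher. Its called members were not all receptors, since srp-3 and srp-7 are serpins and gpa-4 and gpa-12 are G protein alpha subunits. str-176 had 7.63, 8.74 and 10.1 CPM in batch 3 against 13.99, 14.4 and 13.5 CPM in batch 5, srsx-34 had 5.18, 5.53 and 5.65 CPM in batch 3 and 9.51, 8.08 and 8.30 CPM in batch 5, and srr-4 had a log2 fold change of -0.35 ± 0.05. Without the DMSO library of batch 5, 7 of the 51 were lower.

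Nuclear hormone receptors are transcription factors, a family that is very large in nematodes. Of 185 tested, 3 (1.62%) were higher and 37 (20%) were lower in batch 3, against 12.5% and 9.67% of all tested genes. The median was -0.22. But 15 to 22 were lower when any 1 of the 6 libraries was left out, and 8 without the DMSO libraries of all batches. The higher count was 1 without the DMSO library of batch 3 and 0 without that of batch 5. nhr-34 had 28.2, 30.3 and 29.7 CPM in batch 3, against 38.6, 40.6 and 40.3 CPM in batch 5 (log2 fold change -0.44 ± 0.06, adjusted p = 1.4e-05). nhr-115 had 4.52, 3.797 and 3.78 CPM in batch 3 and 6.92, 6.69 and 6.48 CPM in batch 5. The summed level was 2554 to 2667 CPM in batch 3 and 2816 to 2936 CPM in batch 5, which was above the other batches, at 2394 to 2568 CPM.

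Small peptides of the epidermis gave the most negative median of all lists. Many of these nlp, cnc and fipr genes are known to be induced in the epidermis by fungal infection or wounding. Of 31 tested, 2 (6.45%) were higher and 20 (64.5%) were lower in batch 3, against 12.5% and 9.67% of all tested genes. The median was -0.51, and 13 were lower without the UA library of either batch. The higher count was 1 in 4 of the 6 fits that left out 1 library. nlp-27 had 14.4, 14.7 and 16.6 CPM in batch 3, against 27.5, 24.5 and 26.3 CPM in batch 5 (log2 fold change -0.76 ± 0.08, adjusted p = 1.4e-06). fipr-4 had 4.43, 5.12 and 4.39 CPM in batch 3 and 8.57, 8.92 and 8.42 CPM in batch 5. fipr-3 had 4.33, 4.16 and 4.73 CPM in batch 3 and 9.82, 9.11 and 8.30 CPM in batch 5. In these 3 genes batch 3 was not called against the mean of batches 1, 2 and 4, with log2 differences of 0.08 for nlp-27, 0.05 for fipr-4 and -0.26 for fipr-3. The means of batches 1, 2 and 4 were 13.9 to 14.96 CPM for nlp-27. nlp-34 differed from this, with 2.64, 3.29 and 3.34 CPM in batch 3, 4.95, 5.09 and 5.44 CPM in batch 5 and 6.40 to 13.8 CPM as the means of the other batches. fip-6 was higher in batch 3, with 9.99, 8.55 and 9.03 CPM, against 4.64, 6.81 and 5.49 CPM in batch 5.

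Genes of the intracellular pathogen response, which worms switch on with microsporidia or virus, had a median of -0.44 over 8 tested members. Of these, 2 (25%, against 9.67% of all tested genes) were lower in batch 3 and none was higher. They were the ubiquitin ligase genes skr-3, with 56.7, 55.4 and 57.6 CPM in batch 3 against 68.5, 79.3 and 79.5 CPM in batch 5, and cul-6, with 5.94, 4.89 and 5.47 CPM in batch 3 against 8.96, 8.28 and 7.17 CPM in batch 5. UDP-glucuronosyltransferases attach sugars to lipids and foreign compounds. Of 57 tested, 6 (10.5%) were higher and 14 (24.6%) were lower in batch 3, against 12.5% and 9.67% of all tested genes. The median was -0.15. ugt-13 had 34.7, 34.2 and 39.6 CPM in batch 3 and 54.7, 50.4 and 56.9 CPM in batch 5, and ugt-44 had 17.95, 12.1 and 14.7 CPM in batch 3 and 34.6, 29.8 and 24.9 CPM in batch 5. ugt-12 had a log2 fold change of -0.34 ± 0.05. The lower count was 9 without the DMSO library of either batch and 8 without the UA library of batch 5. The higher count was 3 without the untreated library of either batch or without the DMSO library of batch 5.

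**Figure D5:**
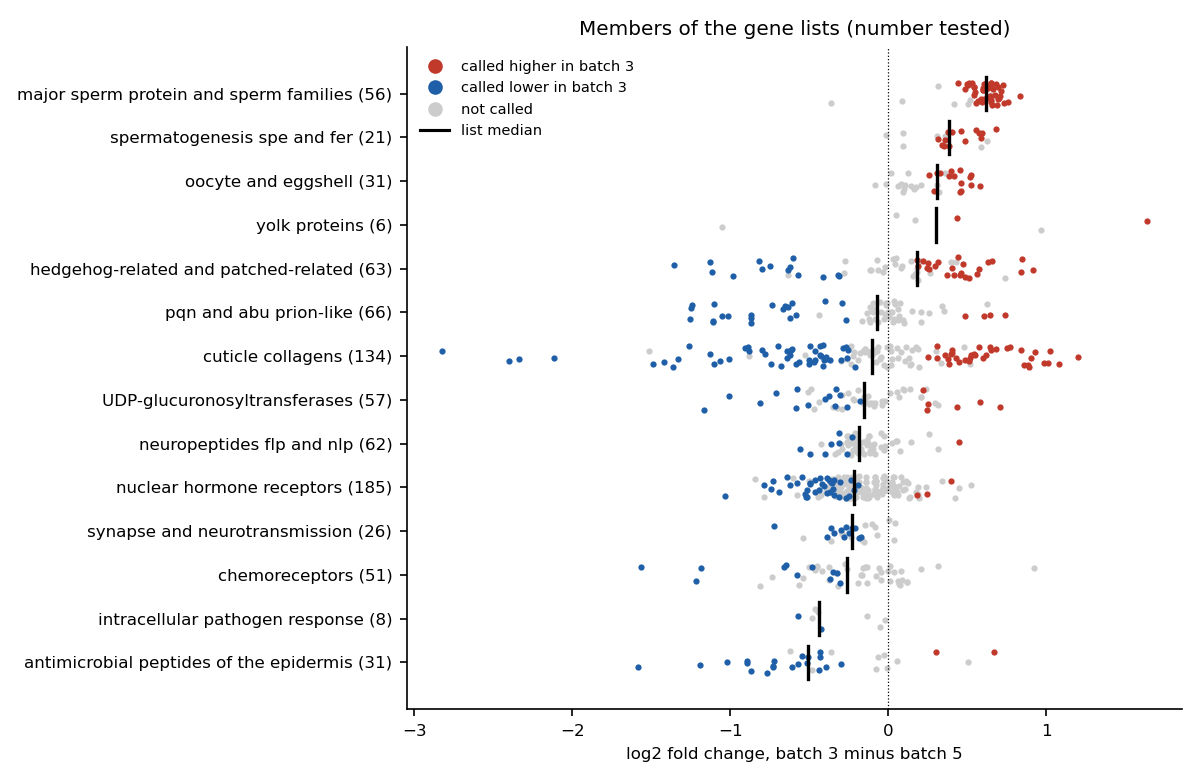
Each point is 1 tested gene, placed by its log2 fold change (batch 3 minus batch 5), in the 12 lists described by the rule and in the cuticle collagens and pqn and abu genes. Red and blue points were called higher and lower in batch 3, grey points were not called, and the black bar is the list median, which runs from 0.62 for the sperm families to -0.51 for the epidermal peptides.

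The study was concerned with sphingolipids, and the acid ceramidase gene asah-1 was therefore always reported. It did not pass the test between the batches, with 50.3, 44.9 and 38.04 CPM in batch 3 and 53.3, 40.0 and 36.0 CPM in batch 5 (log2 fold change 0.06 ± 0.08, adjusted p = 0.62). In both batches its UA library was the highest and its untreated library the lowest. The other sphingolipid genes were chosen after their values were seen. Of 22 tested, 1 (4.55%) was higher and 9 (40.9%) were lower in batch 3, against 12.5% and 9.67% of all tested genes. The median was -0.12, and 3 to 8 were lower with 1 library left out. The count was 3 without the UA library of batch 5, 4 without that of batch 3, and 5 without the DMSO or the untreated library of batch 3. The 1 higher gene, asm-2, was not called without the UA library of batch 3 (adjusted p = 0.023). cgt-1, a ceramide glucosyltransferase, had 6.60, 7.18 and 9.08 CPM in batch 3, against 13.99, 11.3 and 13.4 CPM in batch 5 (log2 fold change -0.74 ± 0.10, adjusted p = 1.3e-05). The ceramide synthase hyl-1 had 54.3, 51.5 and 47.3 CPM in batch 3 and 65.3, 62.9 and 61.7 CPM in batch 5.

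The glutathione S-transferase gene gst-4 shows how the treatment block acted. It had 56.9, 48.5 and 34.6 CPM in batch 3 and 47.5, 35.3 and 24.6 CPM in batch 5. The batches overlapped, yet within each treatment batch 3 was the higher, and the log2 fold change with treatment as a block was 0.40 ± 0.09 (adjusted p = 0.0015). Without the block the adjusted p was 0.20.

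Markers of single cell types were summed as well. Summed sperm markers were at 81.8 to 93.2 CPM in batch 3, 52.8 to 59.1 CPM in batch 5 and 115 to 144 CPM in the other batches, and summed oocyte markers at 70.6 to 84.6 CPM in batch 3 and 58.6 to 62.7 CPM in batch 5. Summed neuron markers were at 355 to 370 CPM in batch 3 and 397 to 408 CPM in batch 5. Summed intestine markers were at 2432 to 2606 CPM in batch 3 and 2730 to 2790 CPM in batch 5, but the 6 tested were split, with 1 called higher and 2 lower. A list of 15 intestine genes had 3 (20%) higher and 4 (26.7%) lower. Over all tested genes, 12.5% were higher and 9.67% lower. The sums of that list overlapped, at 8019 to 8789 CPM in batch 3 and 8729 to 8806 CPM in batch 5. The sums of body wall muscle, epidermis and coelomocyte markers overlapped between the batches. The other 39 lists with 5 or more tested genes had medians between -0.14 and 0.14. Among them, 5 of 79 cytosolic ribosomal protein genes (6.33%) and 6 of 32 proteasome genes (18.8%) were higher in batch 3 and none was lower, beside 12.5% higher and 9.67% lower over all tested genes.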

How the data were processed

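The deposited table holds raw read counts per gene, which the authors made with STAR 2.5.2b and featureCounts 1.5.2 on WBcel235, as named in the submitters' processing notes. The labels name a stranded poly-A kit, and the strand setting of the counting is not given in the sources used here. All 15 count columns were used and 0 columns of per-sample values were left out. Genes with at least 10 counts in all and 1 CPM in 3 libraries were kept (edgeR 4.0.16, limma 3.58.1, R 4.3.3), scaled by TMM, and fitted with edgeR's quasi-likelihood method on treatment and batch. A gene was called at an adjusted p below 0.02 (Benjamini-Hochberg over all tested genes). CPM values use TMM library sizes, and the precision of each value is limited by depth and by 3 libraries per batch. The batches, 52 gene lists and named genes were chosen with earlier results of these data known. Named were the 12 largest and 12 smallest log2 fold changes among called genes of at least 5 CPM without overlap, up to 3 called members of smallest adjusted p in each described list, and asah-1. Lists with the 12 largest absolute medians, or at least 20% of members called at 2-fold, were described in detail. Further genes and lists were chosen after their values were seen. These were the pqn and abu genes and the cuticle collagens other than rol-1, col-41, col-54, col-63, col-90 and col-138. The moulting, stage timing, germ granule, small RNA and sphingolipid genes other than asah-1 were also chosen so. So were the glutathione S-transferases other than gst-35 and gst-21, and vit-2, vit-5, vit-6, nlp-34, fip-6 and cth-1. Of 444 single gene names in the lists, 23 were matched by gene ID and 8 were not found. Gene positions and exon overlaps came from the Ensembl annotation of the same build, which held 20194 of the 20541 gene IDs. The code was run on counts simulated from the fit's own means and spread. These held no variation between cultures, so that run cannot speak to such variation. Alternatives covered scaling, filters, tool (DESeq2 1.42.0), block, threshold, thinning, and leaving out treatments or single libraries. Libraries of 1 treatment deviated together only weakly (r = 0.16 for UA, 0.06 for DMSO and 0.11 for untreated). Python 3.11.15 and matplotlib 3.10.9 drew the figures.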

Additional observations from a re-analysis of the deposited data

How the results depend on the processing

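Of the 3116 calls between batches 3 and 5, each of the 20 alternatives shared at least 1645, all in the same direction. Omitting the DMSO libraries of all batches gave this lowest count, and leaving out 1 of the 6 libraries gave 2182 to 2455. The called genes stayed between 52.1% and 64.2% higher in batch 3, and no named gene that was called reversed. Of 2174 values for 109 named genes, 2114 kept their side of the threshold, 51 fell short of it and 9 passed it. Many of these genes were named for large fold changes or small adjusted p in these same data, which favours a kept call. The log2 fold change of vit-2, which was not called, changed sign without the UA libraries of all batches (-0.01) and without the DMSO library of batch 5 (-0.02). The lin-42 call was also lost with the robust option and with the 6 libraries alone, that of asm-2 without any 1 treatment, and those of cul-6 and ric-4 without the DMSO libraries. Omitting the DMSO libraries of all batches had the largest effect, with 1711 genes called, 1098 higher and 613 lower in batch 3. It also left 124 genes between batches 1 and 4. Omitting the untreated libraries left 890 genes lower in batch 3, 151 genes between batches 1 and 4, and 2666 between batch 3 and the mean of batches 1, 2 and 4. Omitting the UA libraries gave 8011 genes without overlap, where fewer libraries must be separated. Without a treatment block 326 genes were called between batches 1 and 4, and at a false discovery rate of 0.05 the count was 816.

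With 1 of the 6 libraries left out, 2343 to 2655 genes were called, 1376 to 1659 higher and 884 to 1008 lower in batch 3, and 163 to 223 at 2-fold or more. Genes without overlap numbered 6232 to 6727. Batch 1 against batch 4 gave 460 to 593 genes, batch 3 against the mean of batches 1, 2 and 4 gave 3047 to 4184, and batch 5 against that mean gave 4890 to 6161. Beyond the smaller number of libraries, the cause was not tested. With all libraries thinned to the smallest, 21 in place of 37 nuclear hormone receptors were lower in batch 3. Libraries were paired by treatment in the fit, and without this pairing 2738 genes were called, 1621 higher and 1117 lower in batch 3, and among the named genes the calls of gst-4 and vit-1 were lost.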
